A study of Homo sapiens with 4 samples.

Results

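The NF-kB chemokine genes CCL20, CXCL8, CXCL1, CXCL2 and CXCL3 were set against the NF-kB feedback inhibitor genes TNFAIP3 and NFKBIA on each array, together with the further targets TNFAIP2 and ICAM1. These genes were chosen by their measured sh-ACTL6A minus scramble differences in the same 4 arrays, so those differences are given as a description and support nothing by themselves. All probe sets annotated with exactly 1 of the 10 listed gene symbols were taken, which gave 17 probe sets of 9 genes, out of 54613 probe sets that are not controls and 19775 genes. BIRC3, the tenth gene, had no probe set with its symbol in the annotation used and is not analysed here. Of the 17 probe sets, 14 reached the signal threshold for testing, a mean log2 signal of 5.63, and each of the 9 genes had at least 1 of them.

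Expression was measured in cultured SNU638 cells, an established line of human gastric cancer, and no stimulus of NF-kB is stated. Scramble cells carried a non-targeting short hairpin RNA (2 arrays). The sh-ACTL6A cells carried a hairpin against ACTL6A, a subunit of the BAF, INO80 and TIP60 chromatin complexes (2 arrays). For the knockdown the labels describe lentiviral delivery in the pLKO.1 vector and puromycin selection. They name 2 hairpins without stating which hairpin each array holds. The titles number the sh-ACTL6A arrays as the paper numbers its hairpins, but the scramble arrays are numbered in the same way. The 2 sh-ACTL6A arrays, called replicates here, may therefore hold different hairpins or a shared hairpin. Separate cultures are not stated for the arrays within a group, so the SE and p-values measure the spread between these arrays only. This spread may be technical, and in sh-ACTL6A it may include a difference between hairpins.

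NF-kB transcription factors are held in the cytoplasm by IkB proteins until cytokine or pathogen receptors activate the IKK kinases, which mark IkB for destruction. The freed factors then switch on chemokines that recruit leukocytes, adhesion molecules, and inhibitors that shut the pathway down again. In gastric epithelium this programme is known for its activation by Helicobacter pylori, and CXCL8 is its best known product there. CXCL8, CXCL1, CXCL2 and CXCL3 attract neutrophils through CXCR1 or CXCR2, and CCL20 attracts lymphocytes and dendritic cells through CCR6. TNFAIP3 (A20) removes and edits ubiquitin chains upstream of IKK, and NFKBIA (IkB alpha) binds NF-kB itself.

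The promoters of these genes are shown because most of them hold the NF-kB binding motif near the start site. RefSeq promoter windows (GRCh38.p14), from 250 bases before to 50 bases after each annotated start, were available for all 10 listed genes. The TNFAIP3 window is set on a start inside the RefSeq span of that gene, which begins at chr6:137866349. A 9-base kB element, GGAATTTCC, was searched on both strands. It was picked after the promoters had been read, and it lies within or overlaps several matches of the kB consensus. The element was present in 6 of the 10 windows, those of CXCL8, CXCL1, CXCL2, CXCL3, NFKBIA and ICAM1, against 0.461% of all 35116 promoters in the table. In the following 30-base stretches, each written 5′ to 3′ on the gene's strand, capitals mark the element, and in the last 2 it reads on the opposite strand.
CXCL8 (chr4:73740468-73740497, plus strand): tgcaaatcgtGGAATTTCCtctgacataat
CXCL1 (chr4:73869305-73869334, plus strand): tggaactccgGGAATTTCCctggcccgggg
CXCL3 (chr4:74038748-74038777, minus strand): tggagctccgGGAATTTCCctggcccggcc
CXCL2 (chr4:74099253-74099282, minus strand): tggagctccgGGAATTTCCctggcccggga
NFKBIA (chr14:35404811-35404840, minus strand): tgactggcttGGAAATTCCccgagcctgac
ICAM1 (chr19:10270924-10270953, plus strand): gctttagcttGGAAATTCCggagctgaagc

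The element began 91 bases before the start of CXCL8 and 77 to 78 bases before those of CXCL1, CXCL2 and CXCL3. The wider kB consensus motif, searched by its degenerate form on both strands, matched 7 of the 10 windows against 11.3% of all promoters. Its matches in CCL20 and TNFAIP3 are in the next 3 stretches, where capitals mark the match, which reads on the opposite strand. TNFAIP2 held a match to neither motif in its window. A match describes letters and was not tested as a binding site.
CCL20 (chr2:227813753-227813782, plus strand): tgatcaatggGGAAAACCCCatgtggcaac
TNFAIP3, first match (chr6:137867182-137867211, plus strand): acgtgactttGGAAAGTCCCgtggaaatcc
TNFAIP3, second match (chr6:137867194-137867223, plus strand): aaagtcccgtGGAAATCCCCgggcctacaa

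CXCL8, CXCL1, CXCL3 and CXCL2 lie in this order within 359 kb of chromosome 4 (chr4:73740569-74099195). CCL20 lies on chromosome 2, TNFAIP3 on 6, NFKBIA and TNFAIP2 on 14 and ICAM1 on 19. CXCL1, CXCL2 and CXCL3 are close paralogs, with 82.5% identical alignment columns between the promoter windows of CXCL1 and CXCL3, 72.9% between CXCL1 and CXCL2 and 73.7% between CXCL2 and CXCL3. The windows of CXCL8 and these 3 genes were 46.2% to 47.3% identical. Probe sets of such close paralogs may share signal, which was not tested, so the values of CXCL1, CXCL2 and CXCL3 are uncertain as separate measurements.

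ACTL6A, the targeted gene, had a log2 signal of 11.92 and 11.82 in scramble cells, and of 10.16 and 10.32 after knockdown. It fell by 1.63 ± 0.14 (SE, limma adjusted p = 0.0408), by a similar amount on both sh-ACTL6A arrays, and it was the only one of 12286 tested genes called at this threshold (0.00814%). The difference lay between -1.71 and -1.55 whichever array was left out. The call was lost without scramble replicate 1 (limma adjusted p = 0.9996) or 2 (0.567), held without sh-ACTL6A replicate 1 (8.4e-05) or 2 (3.0e-06), and was lost under several other settings. Epithelial identity was checked with 8 markers, of which 7 reached the threshold, EPCAM at a mean log2 signal of 13.61. Of these 7 markers 5 lay below 0 and 2 above (median -0.12), and none passed the test. The mean log2 signal of all 8 markers was 11.02 and 11.04 in scramble, 10.66 on sh-ACTL6A replicate 1 and 11.07 on replicate 2. This mean includes CLDN4, below the threshold, which varied from 5.31 to 3.20 in scramble and from 3.57 to 5.29 in sh-ACTL6A. KRT7 differed by -0.84 ± 0.19 (SE, limma adjusted p = 0.547) and KRT18 by -0.34 ± 0.08 (SE, limma adjusted p = 0.595), both without overlap, and the part of these keratin differences in the member values was not tested. None of the 6 leukocyte markers with a probe set reached the threshold. The mean log2 signal of these leukocyte markers was 2.93 on one scramble array and 4.14 on the other, and both sh-ACTL6A arrays lay between them. Of 8 fibroblast and endothelial markers, 3 reached the threshold, COL1A1 with the highest mean at 8.44. In such bulk samples, fewer cells of a kind and less RNA per cell cannot be told apart.

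All 9 member genes had a negative sh-ACTL6A minus scramble difference, between -0.66 for CCL20 and -0.02 for NFKBIA on the log2 scale. Of all 12286 tested genes, 5913 lay below 0 and 6373 above. The median difference was -0.27 over the 5 chemokines, -0.16 over the 2 feedback inhibitors and -0.29 over TNFAIP2 and ICAM1, beside 0.01 over all tested genes. Limma called 0 of the 9 at adjusted p under 0.05, with 3 at an unadjusted p under 0.05. Of all 12286 tested genes, limma had 394 higher and 282 lower at that unadjusted level. The methods' t-test (unpaired, as the study's methods name it) gave 2 of the 9, beside 396 higher and 276 lower of all tested genes. It called none after adjustment. For 4 of the 9 genes, CCL20, CXCL8, TNFAIP3 and TNFAIP2, both sh-ACTL6A arrays lay below both scramble arrays, where 15.4% of all tested genes did so and 19.3% lay above. Since the genes were picked on this contrast, nothing is read from these counts.

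**Figure D1:**
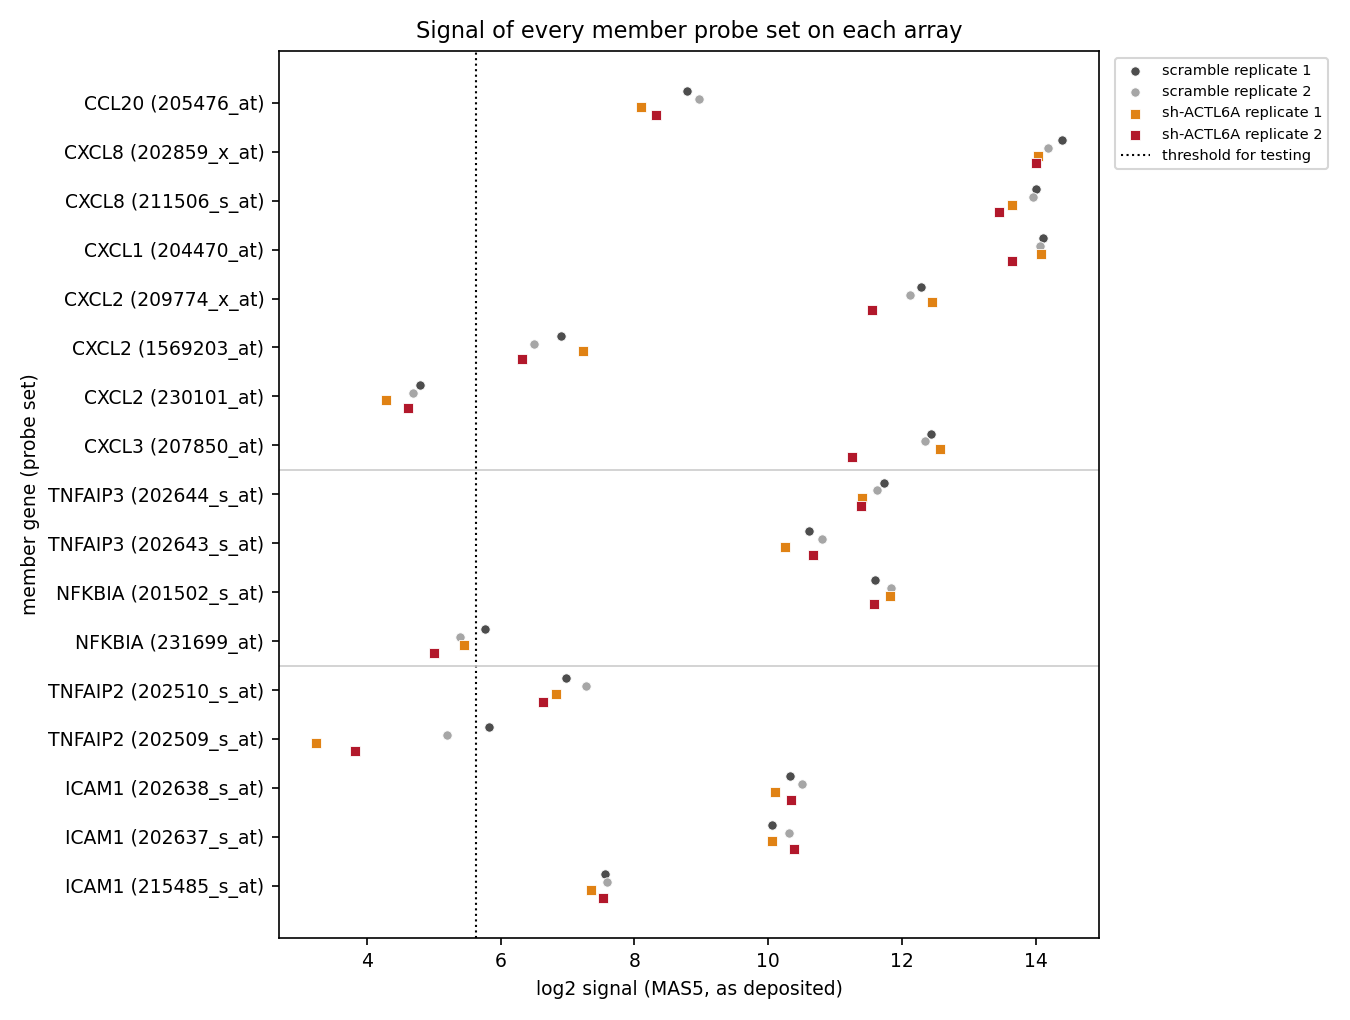
Log2 signal (horizontal axis) of each of the 17 member probe sets (vertical axis, grouped as chemokines, feedback inhibitors and other targets), with 1 point per array and the testing threshold of 5.63 as a dotted line. The sh-ACTL6A squares lie left of the scramble circles for CCL20 and both CXCL8 probe sets, while only sh-ACTL6A replicate 2 does so for CXCL1, CXCL3 and the bright CXCL2 probe set.

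CCL20 and CXCL8 were lower on both sh-ACTL6A arrays. CCL20 read 8.78 and 8.96 in scramble and, lower, 8.10 and 8.32 in sh-ACTL6A. The groups did not overlap, and the difference of -0.66 ± 0.19 (SE) amounts to -36.9% in linear signal. The brighter CXCL8 probe set read 14.39 and 14.18 in scramble against 14.03 and 14.01 in sh-ACTL6A, a difference of -0.27 ± 0.09 (SE). The dimmer one read 14.00 and 13.95 against 13.65 and 13.45, a difference of -0.43. Both CXCL8 probe sets thus separated the groups. Without scramble replicate 1 the brighter CXCL8 probe set differed by -0.16 and without scramble replicate 2 by -0.37, while CCL20 stayed between -0.77 and -0.55 whichever array was left out.

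CXCL1, CXCL2 and CXCL3 were low on sh-ACTL6A replicate 2 alone. CXCL3 read 12.44 and 12.34 on the scramble arrays, 12.57 on sh-ACTL6A replicate 1 and 11.25 on replicate 2. Replicate 1 was thus above both scramble arrays, by 0.18 over their mean, and replicate 2 differed from that mean by -1.14. The bright CXCL2 probe set read 12.29 and 12.12 in scramble, 12.45 on sh-ACTL6A replicate 1 and 11.55 on replicate 2. CXCL1 read 14.11 and 14.07 in scramble, 14.08 on sh-ACTL6A replicate 1 and 13.65 on replicate 2. In all 3 genes the groups overlapped, and the mean differences of -0.48 ± 0.36 (SE) for CXCL3, -0.20 ± 0.26 (SE) for CXCL2 and -0.22 ± 0.14 (SE) for CXCL1 rest on that 1 array.

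The other CXCL2 probe sets were much dimmer and disagreed with each other. The one above the threshold read 6.90 and 6.50 in scramble, 7.24 on sh-ACTL6A replicate 1 and 6.31 on replicate 2, so replicate 2 minus replicate 1 of sh-ACTL6A was -0.92, close to the -0.90 of the bright probe set. Its mean difference was 0.07, of the opposite sign. The one below the threshold read 4.80 and 4.69 in scramble against 4.29 and 4.62 in sh-ACTL6A, with replicate 2 the higher of the sh-ACTL6A arrays.

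The distance between the sh-ACTL6A arrays was compared with that of all tested genes. CXCL1, CXCL2 and CXCL3 were singled out after their values were seen, and their mean differences rest on sh-ACTL6A replicate 2. A low value of replicate 2 minus replicate 1 thus follows in part from the choice of genes. The genes called below with 1 sh-ACTL6A array left out follow in part from this choice too. These calls and the shares below are a description, and nothing is read from them. Replicate 2 minus replicate 1 was -1.33 for CXCL3, and 67 of the 12286 tested genes (0.545%) had a value this low or lower, CXCL3 included. The same difference was -0.90 for CXCL2, reached by 250 genes, and -0.44 for CXCL1, reached by 1238 genes (10.1%). It was -0.02 for CXCL8, 0.22 for CCL20 and -0.01 for TNFAIP3. Over all tested genes the root mean square of this difference was 0.44, and that between the scramble arrays 0.37. Without sh-ACTL6A replicate 1, a fit that assumes the lone array to vary like the scramble pair called CXCL1, CXCL2 and CXCL3 lower, where it called 2.12% of all tested genes lower. Without sh-ACTL6A replicate 2 it called none of the 9 member genes and 1.96% of all tested genes lower, and CXCL2 and CXCL3 then differed by 0.25 and 0.18, above scramble.

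A measure of RNA integrity, the 3′ minus the 5′ control probe set of ACTB on the log2 scale, followed the replicate number and not the group. It was 1.63 on scramble replicate 1, 1.21 on sh-ACTL6A replicate 1 and 0.78 on replicate 2 of both groups. CXCL3 read 12.44 and 12.34 on scramble replicates 1 and 2, and 12.57 and 11.25 on those of sh-ACTL6A. ACTL6A itself was 0.16 higher on sh-ACTL6A replicate 2 than on replicate 1. The part of RNA quality, of knockdown depth and of the hairpin used in this pattern was not tested.

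**Figure D2:**
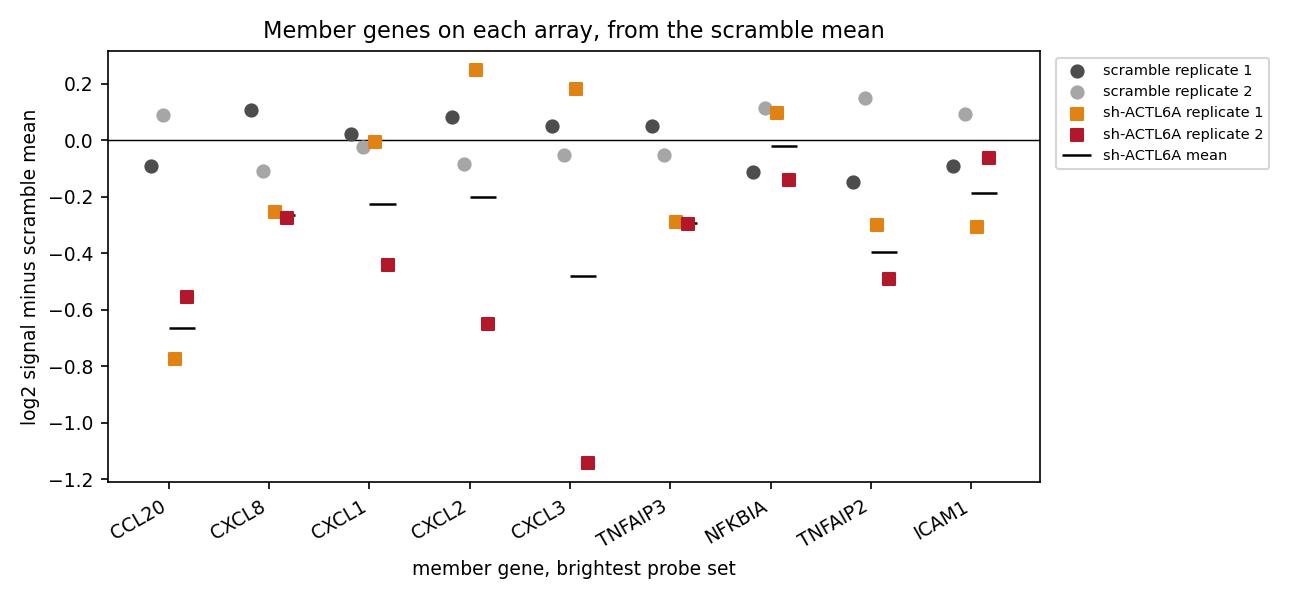
Log2 signal minus the scramble mean (vertical axis) for the brightest probe set of each of the 9 member genes (horizontal axis), with 1 point per array and a bar at the sh-ACTL6A mean. The sh-ACTL6A arrays lie together below 0 for CCL20, CXCL8 and TNFAIP3, and apart for CXCL3, where replicate 2 minus replicate 1 is -1.33.

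Along the chromosome 4 cluster, RefSeq places 9 protein-coding genes from CXCL8 to CXCL2, of which 7 were tested. CXCL5, another neutrophil chemokine that lies between CXCL1 and CXCL3, read 13.84 and 13.86 in scramble, 13.90 on sh-ACTL6A replicate 1 and 13.62 on replicate 2. Its lowest array was again sh-ACTL6A replicate 2, with overlapping groups and a mean difference of -0.09 ± 0.11 (SE, limma adjusted p = 0.957). PPBP, the platelet basic protein, read 11.28 and 11.10 in scramble. Its sh-ACTL6A arrays lay below these, at 11.07 and 10.85, so PPBP differed by -0.23 ± 0.15 (SE, limma adjusted p = 0.921). PF4, platelet factor 4, was near the threshold at 6.00 and 5.84 against 6.26 and 6.02. Replicate 2 minus replicate 1 of sh-ACTL6A was negative in all 7 tested genes of the cluster, from -0.02 for CXCL8 to -1.33 for CXCL3. A value as low as that of CXCL8 or lower was common, found in 5988 of the 12286 tested genes, CXCL8 included. The difference was largest in CXCL3 and CXCL2, the last 2 genes in chromosomal order, and an effect of position was not tested.

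**Figure D3:**
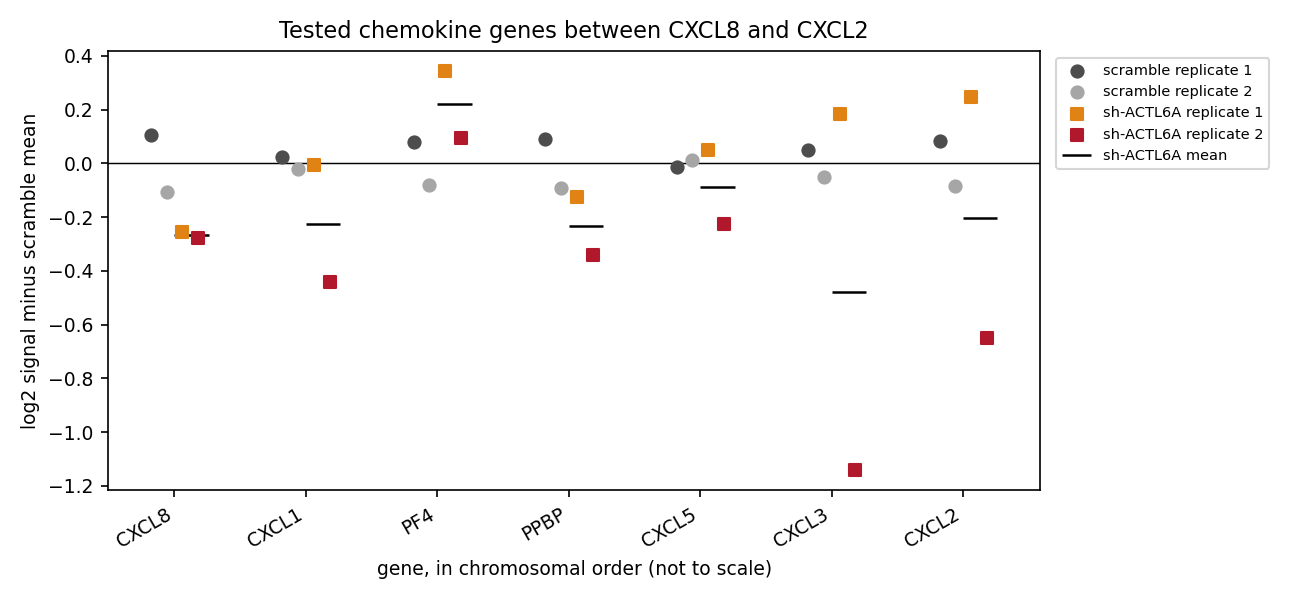
Log2 signal minus the scramble mean (vertical axis) for the 7 tested genes from CXCL8 to CXCL2 in chromosomal order (horizontal axis, not to scale), 1 point per array, with a bar at the sh-ACTL6A mean. The orange and red squares of sh-ACTL6A replicates 1 and 2 nearly coincide at CXCL8 and are furthest apart at CXCL3 and CXCL2.

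Of the feedback inhibitors, TNFAIP3 was lower on both sh-ACTL6A arrays and NFKBIA was not. The brighter TNFAIP3 probe set read 11.73 and 11.63 in scramble and 11.39 on each sh-ACTL6A array, a difference of -0.29 ± 0.12 (SE) without overlap. The dimmer one read 10.61 and 10.80 against 10.25 and 10.66, a difference of -0.25 with overlapping groups, since sh-ACTL6A replicate 2 lay above scramble replicate 1. The bright NFKBIA probe set read 11.60 and 11.83 against 11.81 and 11.57, with the groups interleaved and a difference of -0.02 ± 0.14 (SE, 95% confidence interval -0.36 to 0.31). This sign did not hold, since NFKBIA differed by 0.01 with median centring, 0.09 without scramble replicate 2 and 0.10 without sh-ACTL6A replicate 2. The other NFKBIA probe set lay below the threshold at 5.77 and 5.39 against 5.45 and 5.00.

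The further targets are TNFAIP2, a TNF-induced gene of cell protrusions, and ICAM1, the adhesion molecule that binds leukocyte integrins. The brighter TNFAIP2 probe set read 6.98 and 7.28 in scramble against 6.83 and 6.64 in sh-ACTL6A, a difference of -0.40 ± 0.28 (SE) without overlap. The dimmer one, below the threshold, read 5.83 and 5.19 against 3.24 and 3.83. Its difference of -1.98 is the largest among the 17 probe sets, and its scramble arrays themselves lay further apart than those of the brighter probe set. With both probe sets averaged, TNFAIP2 differed by -1.19. ICAM1 had 3 probe sets, all above the threshold, and they disagreed in sign. The brightest read 10.32 and 10.50 in scramble, 10.10 and 10.35 in sh-ACTL6A, and so differed by -0.19 ± 0.16 (SE). The second read 10.06 and 10.30 against 10.06 and 10.38, a difference of 0.04, and the third differed by -0.14.

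Over probe sets, 15 of 17 lay below 0, the exceptions being single probe sets of CXCL2 and ICAM1. The groups separated with sh-ACTL6A lower in 8 of 17 and with sh-ACTL6A higher in none, beside 17.1% and 16.7% of all probe sets that are not controls. These counts again come from the contrast on which the genes were picked.

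The chemokines were then set against the feedback inhibitors on each array. The 5 chemokine genes had a mean log2 signal of 12.40 and 12.33 in scramble, against 12.25 and 11.75 in sh-ACTL6A. That of TNFAIP3 and NFKBIA was 11.67 and 11.73 against 11.60 and 11.48. Both means were below the scramble arrays on each sh-ACTL6A array. The gap, chemokines minus feedback inhibitors, was 0.73 and 0.60 in scramble, 0.64 on sh-ACTL6A replicate 1 and 0.27 on replicate 2. Only its change between arrays has a meaning, since signals of different probe sets are not on a common scale. The gap overlapped between groups and differed by -0.21, of which replicate 1 gave -0.03 and replicate 2 -0.39 from the scramble mean. With 2 arrays against 2, an exact 2-sided permutation test cannot go below p = 0.333, and none was run on this value.

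The change of the gap followed the genes counted on either side. With TNFAIP2 and ICAM1 added to the inhibitors it was -0.14, and with CXCL2 and CXCL3 left out -0.23. Split after their values were seen, CXCL1, CXCL2 and CXCL3 averaged 12.95 and 12.84 in scramble, 13.04 on sh-ACTL6A replicate 1 and 12.15 on replicate 2. CXCL8 and CCL20 averaged 11.59 and 11.57 in scramble against 11.06 and 11.16, so this pair was lower by a similar amount on both sh-ACTL6A arrays.

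**Figure D4:**
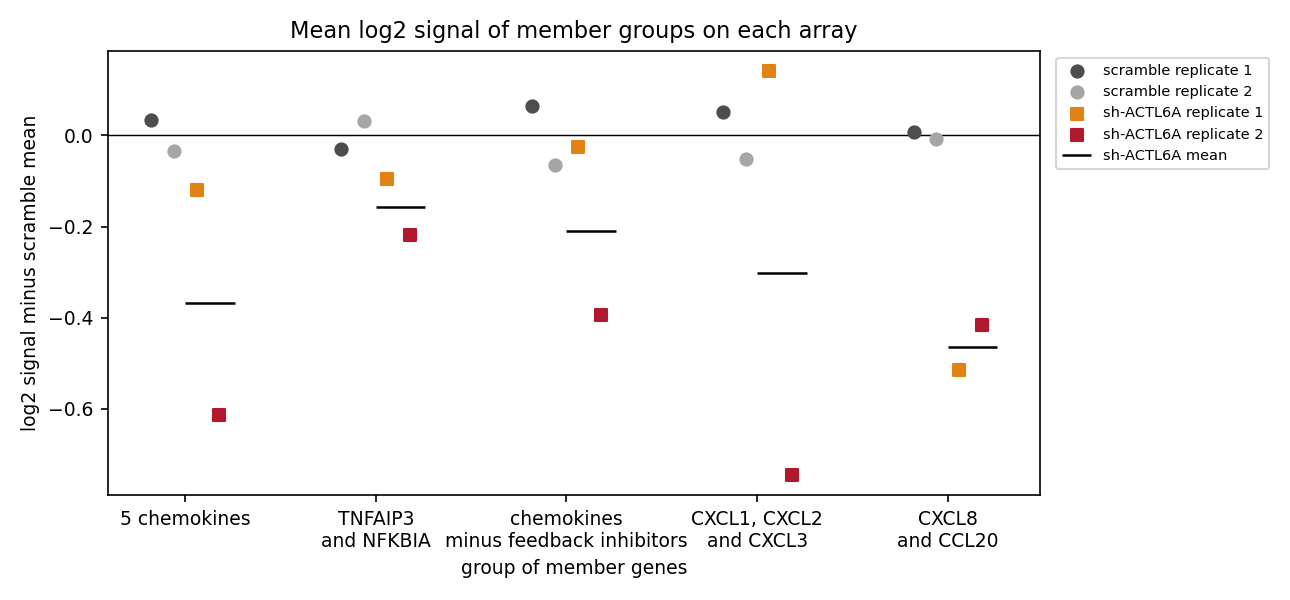
Mean log2 signal of groups of member genes minus its scramble mean (vertical axis), with the gap of chemokines minus feedback inhibitors in the middle, 1 point per array and a bar at the sh-ACTL6A mean. The gap of sh-ACTL6A replicate 1 lies within the scramble arrays and that of replicate 2 lies 0.39 below the scramble mean.

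The rest of the pathway was examined in 8 further lists holding 146 genes, of which 95 were tested. None of the 95 passed in either direction (limma, Benjamini-Hochberg over all tested genes). At an unadjusted p under 0.05, limma had 0 higher and 4 lower and the methods' t-test 2 higher and 5 lower. Over all 12286 tested genes limma had 394 higher and 282 lower at that level. A total of 50 of the 95 lay below 0 and 45 above, beside 5913 below and 6373 above over all tested genes.

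Upstream, the ligands, receptors and kinases showed no shared direction. Among 7 tested cytokine ligands 3 lay above 0 and 4 below (median -0.07). TNF, a main inducer of NF-kB, was dim, at 6.50 and 6.44 in scramble against 5.95 and 5.80, a difference of -0.60 ± 0.34 (SE, limma adjusted p = 0.918). IL1B differed by -0.60 ± 0.42 (SE) with overlapping groups, the interleukin-6 family ligand LIF by -0.24 ± 0.13 (SE), and IL18 by 0.63 ± 0.53 (SE). Of 21 receptors and adaptors 13 lay above 0 and 8 below (median 0.05). TRAF3, which restrains the non-canonical branch, read 10.71 and 10.59 against 10.58 and 9.62, with sh-ACTL6A replicate 2 again far the lowest. MYD88, the adaptor of toll-like and interleukin-1 receptors, differed by 0.27 ± 0.15 (SE), TLR2 by 0.48 ± 0.28 (SE) and TICAM1 by 0.29 ± 0.24 (SE). Of 11 kinases 8 lay above 0 and 3 below (median 0.02), with MAP3K8 at 0.54 ± 0.25 (SE), the scaffold TAB2 at 0.29 ± 0.14 (SE), TBK1 at 0.14 ± 0.13 (SE) and MAP3K14, the non-canonical kinase, at -0.20 ± 0.23 (SE). The limma adjusted p of these genes was between 0.917 and 0.951.

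The 5 NF-kB subunits were all tested and all overlapped between groups, with differences from -0.07 to 0.13. RELA, the subunit that most often drives these chemokines, read 10.52 and 10.80 in scramble against 10.54 and 10.77, a difference of -0.01 ± 0.16 (SE, limma adjusted p = 0.998, 95% confidence interval -0.39 to 0.37). REL differed by 0.13 ± 0.21 (SE), NFKB2 by 0.13 ± 0.32 (SE), NFKB1 by 0.05 ± 0.14 (SE) and RELB by -0.07 ± 0.26 (SE). The limma adjusted p of these 4 genes was between 0.967 and 0.982.

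Among 16 other inhibitors, 7 lay above 0 and 9 below (median -0.01). OTUD7B, a deubiquitinase related to A20, differed by 0.34 ± 0.17 (SE) and RNF11, a partner of A20, by -0.21 ± 0.12 (SE). The ubiquitin ligase BIRC2, an inhibitor in the non-canonical branch, differed by -0.17 ± 0.12 (SE). COMMD1, which promotes removal of RELA, differed by 0.21 ± 0.17 (SE). Of 23 other chemokines with a probe set only 5 reached the threshold, with 3 above 0 and 2 below, CXCL16 at 0.25 ± 0.22 (SE) among them. The receptors CXCR1, CXCR2 and CCR6 and the ICAM1 receptors ITGAL and ITGB2 lay below the threshold. The 3 tested genes of that list, GPR35, ITGAM and ACKR2, had mean log2 signals between 5.66 and 5.87, close to it.

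Of 28 other NF-kB target genes tested, 20 lay below 0 and 8 above (median -0.11), beside 5913 below and 6373 above over all tested genes. Both sh-ACTL6A arrays lay below both scramble arrays in 7 of the 28 and above in none, beside 15.4% and 19.3% of all tested genes. PLAU, the urokinase plasminogen activator, read 11.06 and 11.19 in scramble and 9.71 and 10.34 in sh-ACTL6A. It differed by -1.10 ± 0.21 (SE, limma adjusted p = 0.414). CD44, a cell surface receptor for hyaluronan, differed by -0.37 ± 0.10 (SE, limma adjusted p = 0.698), the zinc finger factor KLF6 by -0.32 ± 0.09 (SE, limma adjusted p = 0.715) and GADD45A, a stress response gene, by -0.39 ± 0.12 (SE, limma adjusted p = 0.751). These 4 genes separated the groups without passing the threshold. Many genes of this list answer to other factors too, and the list was drawn up with earlier results of these arrays known, so it is no independent support.

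**Figure D5:**
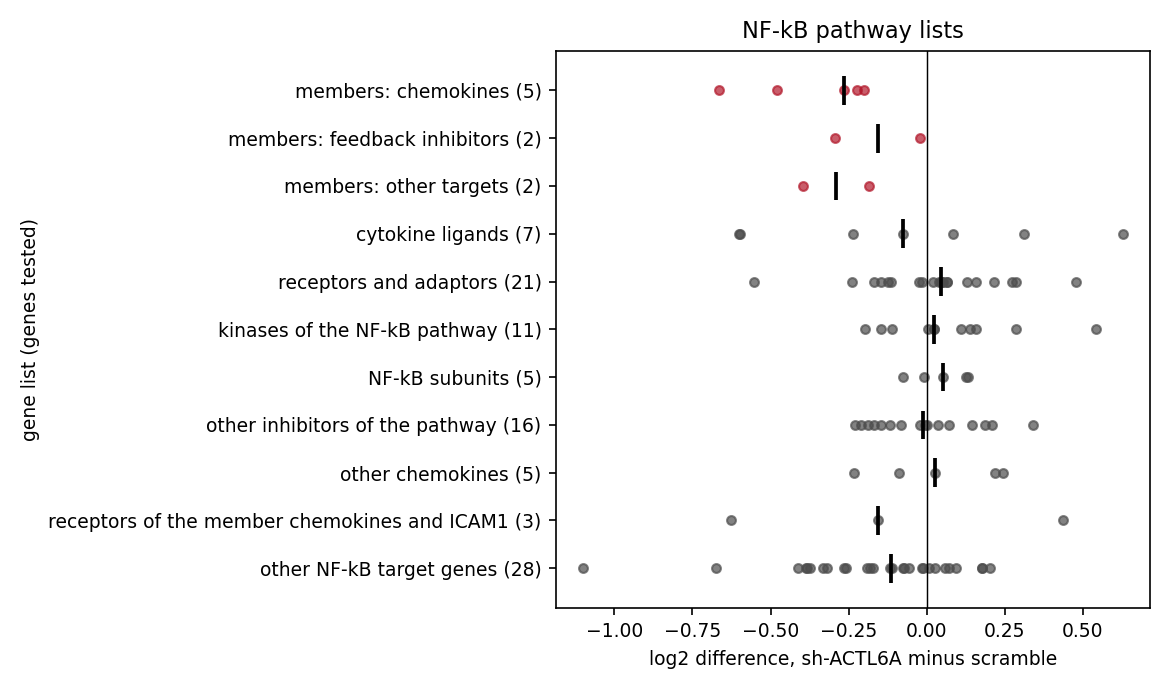
Log2 difference, sh-ACTL6A minus scramble (horizontal axis), of each tested gene (points) in the member groups (red) and the other pathway lists (grey), with a bar at each list's median and the number of genes tested in brackets. NF-kB subunits lie within 0.13 of 0, and other target genes have a median of -0.11.

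The mean profile of the 5 chemokines over the 4 arrays, centred on its own mean, was compared with those of all other tested genes. The closest were AUP1, CHTOP, RAB3IP, C6orf62 and PIK3C3, with root mean square differences of 0.018 to 0.023 on the log2 scale. AUP1 read 11.79 and 11.75 in scramble, 11.68 on sh-ACTL6A replicate 1 and 11.17 on replicate 2. This profile averages chemokines with unlike patterns, and likeness over 4 arrays is a description only.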

How the data were processed

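RNA from SNU638 cells was labelled with biotin and hybridised to single-colour Affymetrix arrays. On 4 arrays, 54675 probe sets each have a log2 signal as the authors deposited it. MAS5 is named in the submitters' processing notes, with no version given there. MAS5 scales each array separately, and the 2% trimmed mean of the linear signal was 500.0 on every array. Median log2 signal was 5.70 to 5.83. The number of arrays limits the precision.

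Groups came from the sample titles. Of 54613 non-control probe sets, 41091 had 1 gene symbol, 1801 several and 11721 none in the platform table (0 symbols needed an update from RefSeq). Each of 19775 genes was represented by its brightest probe set, and 12286 at or above the 50th percentile of mean signal (5.63) entered limma (lmFit and eBayes, trend on intensity; limma 3.58.1, R 4.3.3). Tests were 2-sided and p-values were adjusted over all tested genes by Benjamini-Hochberg. The genes that the text names are ACTL6A, all members, up to 4 genes of each pathway list by the smallest unadjusted p, and the 5 nearest profiles. RELA was added after its values were seen. Members and lists were chosen with earlier results of these data known. Single members have an SE but no p, and their counts at p thresholds are given as a description only. TNFAIP3 and NFKBIA stand for the feedback inhibitors, since BIRC3 is not analysed here. The limma fit was tested on simulated data. Alternatives were quantile normalisation, median centring, other filters, the mean of all probe sets, an offset of 14.0 on the linear signal, no trend, a replicate block, leaving out arrays singly, testing every probe set, and the methods' t-test.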

Additional observations from a re-analysis of the deposited data

How the results depend on the processing

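The number of genes called was 1 in the reported fit and under the offset, the mean of all probe sets, median centring and the stricter filter, each time ACTL6A. It was 0 after quantile normalisation, with no filter, with no intensity trend, with every probe set tested and by the methods' t-test, which at an unadjusted p under 0.05 had 396 genes higher and 276 lower, against 394 and 282 by limma. With the replicate block it was 2, ACTL6A and PAFAH1B2, and the block called no member. The labels do not say what a replicate number marks. Over all tested genes the deviations of arrays with the same number correlated at 0.056, although the ACTB and GAPDH 3′ minus 5′ values followed the number. Leaving out 1 array gave 0 to 401 called genes, 401 without sh-ACTL6A replicate 1 and 335 without replicate 2. Such a fit assumes the lone array to vary like the pair of the other group. The cause of this range was not tested.

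The median chemokine difference ranged from -0.55 to -0.0065 when 1 array was left out, the lowest without sh-ACTL6A replicate 1 and the highest without replicate 2. The median of the feedback inhibitors was -0.23 with all probe sets averaged, where a dim NFKBIA probe set enters. The gap between them was -0.14 with the stricter filter, which drops CCL20 and TNFAIP2, -0.14 with all probe sets averaged, -0.15 without scramble replicate 1 and -0.03 without sh-ACTL6A replicate 2. The alternative with TNFAIP3 and NFKBIA alone as inhibitors equals the reported one. With all arrays, NFKBIA was the one member gene whose sign changed with a setting. Dim probe sets limit what can be said of TNFAIP2, TNF and the chemokine receptors.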
